A study of Mus musculus with 4 samples.

Results

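HT-22 is an immortalized cell line derived from mouse hippocampal neurons, and the labels describe its cell type as hippocampal neuron. The lineage markers examined here are 58 genes taken as a fixed list: 23 neuronal genes, 9 glial genes, 6 microglial or leukocyte genes, 2 endothelial genes, 4 epithelial genes, 13 mesenchymal genes, and the deubiquitinase gene Uchl5. Members were found by exact match of their symbol in the deposited table, in which 43 of the 58 have a row among 24689 genes. RNA sequencing was done on 4 libraries, 2 from HT-22 cells in which Pja2 was induced (titled Pja2-pb, a tag the labels do not explain) and 2 from control HT-22 cells. The controls are called uninduced in one label and wild type in another. Whether they are the induced line left uninduced or its unmodified parent is not stated, and a difference between lines cannot be told apart from an effect of induction. All 4 libraries came from cells at passages 21 to 24. The labels do not give the means of induction or whether the line is a clone. They also do not say that replicates are separate cultures, so the error in each test is the spread between these libraries, which may be technical. Pja2, a RING-type ubiquitin ligase gene, had 54830 and 54244 normalized reads in induced cells, against 6167 and 5881 in control cells.

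Cell types are commonly told apart by genes for their structural and signalling machinery. Mature neurons carry microtubule-associated proteins, neurofilaments and synaptic vesicle proteins, and their RNA-binding nuclear protein Rbfox3 is the antigen known as NeuN. Astrocytes are known by Gfap and glutamate transporters, oligodendrocytes by myelin proteins and Olig factors, and microglia by leukocyte receptors. Epithelia carry keratins and Epcam, whereas mesenchymal cells carry Twist, Snail, Zeb and Prrx factors together with surface proteins such as Cd44 and Pdpn. Several of these genes serve more than 1 cell type: Thy1 is abundant in neurons and in fibroblasts, Cspg4 in oligodendrocyte precursors and in pericytes, and Cd34 in blood progenitors, endothelium and stroma.

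Of the 58 markers, 24 had a mean of at least 1 CPM (1 read per 1000000 reads in genes) over the 4 libraries, 19 had a row but stayed below that level, and 15 had no row in the table used here. No row of that table is at 0 in every library. No value is given for the 15, which are Map2, Nefm, Nefh, Ina, Snap25, Rbfox3, Elavl4, Neurod1, Calb1, Aqp4, Mog, Olig1, Olig2, Epcam and Krt18. The markers at 1 CPM or more were spread unevenly over the lineages. They took in 12 of 13 mesenchymal genes, 5 of 23 neuronal genes, 3 of 9 glial genes, 3 of 6 microglial or leukocyte genes, and 0 of 6 endothelial and epithelial genes. The list was chosen with earlier results of these data known, so these shares describe the listed genes only. Libraries held 30080376 and 35262653 reads in genes in the induced cells, against 25787452 and 31010351 in the control cells, so that 1 CPM stood for 25.8 to 35.3 reads. In such bulk RNA, fewer cells of a type and less RNA per cell cannot be told apart.

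**Figure D1:**
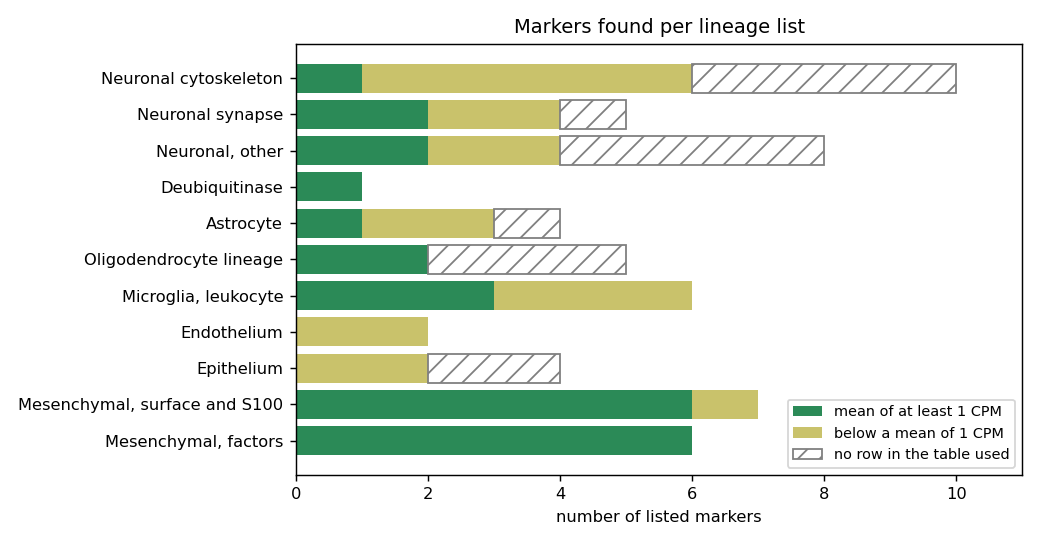
Number of listed markers in each lineage list (horizontal axis, genes), divided into those with a mean of at least 1 CPM, those with a row below it, and those with no row in the table used. Of the mesenchymal genes 12 of 13 lie in the first class, against 5 of 23 neuronal genes, in a list chosen with earlier results of these data known.

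Levels between genes were compared as normalized reads per kb of exon. The length counts each annotated exon base of a gene once, over all its annotated transcripts. It can exceed the length of the transcript made, which lowers the level per kb. The 7 highest of the 24 markers were mesenchymal genes. S100a4, a calcium-binding protein gene also called fibroblast-specific protein, averaged 144121 ± 2059 normalized reads per kb in induced cells and 128695 ± 1727 in control cells (SD, n = 2 each, as for every mean ± SD here), and its mean ranked 11 among 24591 genes with a length. Its relative S100a6 ranked 75 and Cd34, a sialomucin gene, 411. The median over the 13252 genes that passed the filter and have a length was 242 normalized reads per kb, and 18 of the 24 markers lay above it. Eno2 ranked highest of the neuronal genes, at 816 normalized reads per kb and rank 2243. In the order of the 24 genes, 16 of 23 neighbouring pairs had library ranges that overlapped. S100a4, S100a6 and Cd34 were each apart from the next gene down, whereas the run from Twist2 through Pdpn, Snai2, Thy1 and Eno2 to Tmem119 held no gap between neighbours.

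**Figure D2:**
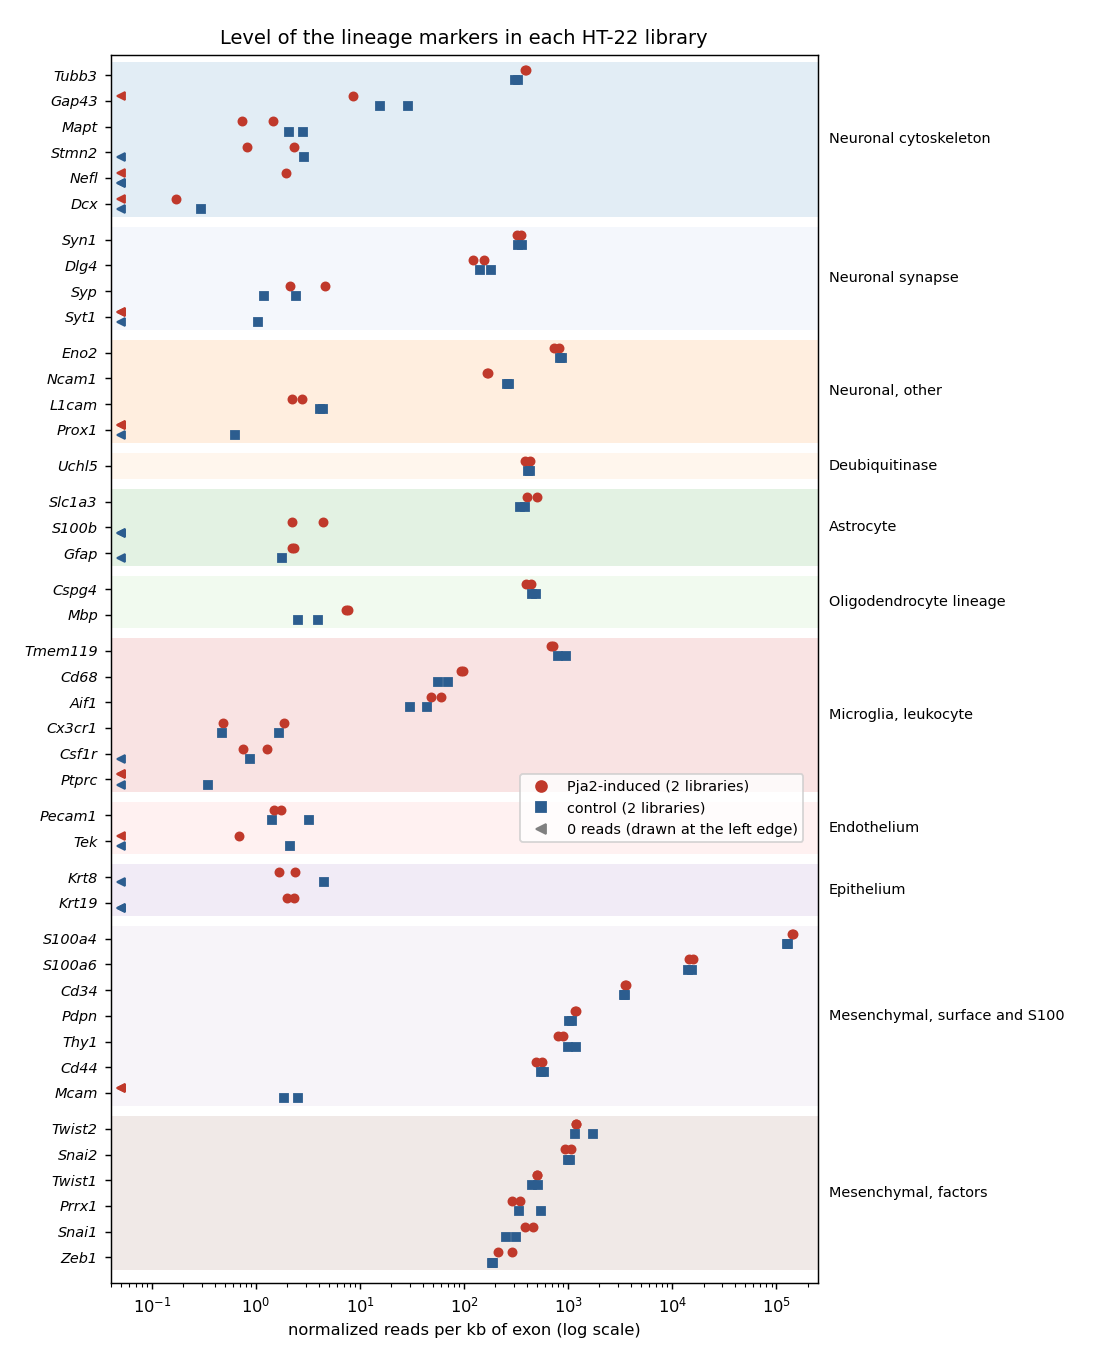
Normalized reads per kb of exon (horizontal, log scale) of the 43 markers with a row, grouped by lineage, with 2 Pja2-induced libraries as circles above 2 control libraries as squares. Triangles at the left edge stand for 0 reads. The mesenchymal genes other than Mcam lie at 186 or more in every library, while most neuronal, endothelial and epithelial genes lie below 10.

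Over the whole list, Ncam1, a neuronal adhesion gene, was the 1 marker that passed the test between induced and control cells. Differences were tested with limma on the log2 values, with Benjamini-Hochberg adjustment over all tested genes and a threshold of 0.05 on the adjusted p. Of the 24 markers, limma called 0 higher and 1 lower, which is 4.17% of the members, beside 3.42% of all 13276 tested genes (2.08% higher and 1.34% lower). At an unadjusted p under 0.05 in limma there were 6 higher and 3 lower. These 9 of 24 are a larger share than the 2535 of 13276 tested genes (19.1%), in a list chosen with earlier results of these data known. At the adjusted threshold, limma voom on the whole reads called the same numbers as limma, 0 higher and 1 lower. Both groups were apart, with no overlap between libraries, in 14 of 24 members (58.3%), beside 51.3% of all tested genes (26.2% higher and 25.1% lower). Of these 14 members, 9 were higher and 5 lower. The median log2 fold change over the 24 was 0.01, with 12 above and 12 below 0. In the fit without the filter, in which all 43 members with a row were tested, Ncam1 was again the 1 member called (adjusted p = 0.0378).

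**Figure D3:**
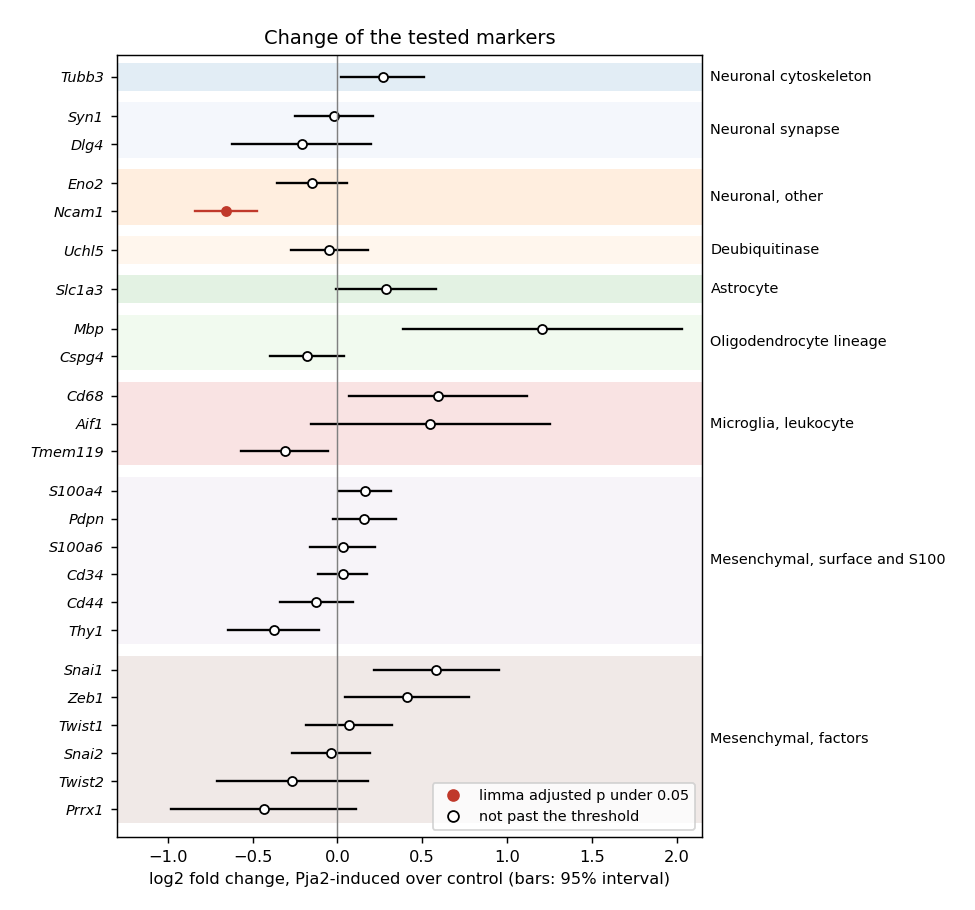
Log2 fold change of the 24 tested markers, Pja2-induced over control (horizontal axis), with 95% intervals from limma, grouped by lineage. Ncam1, at -0.66, is the filled point, past an adjusted p of 0.05, and the other 23 are open.

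**Figure D4:**
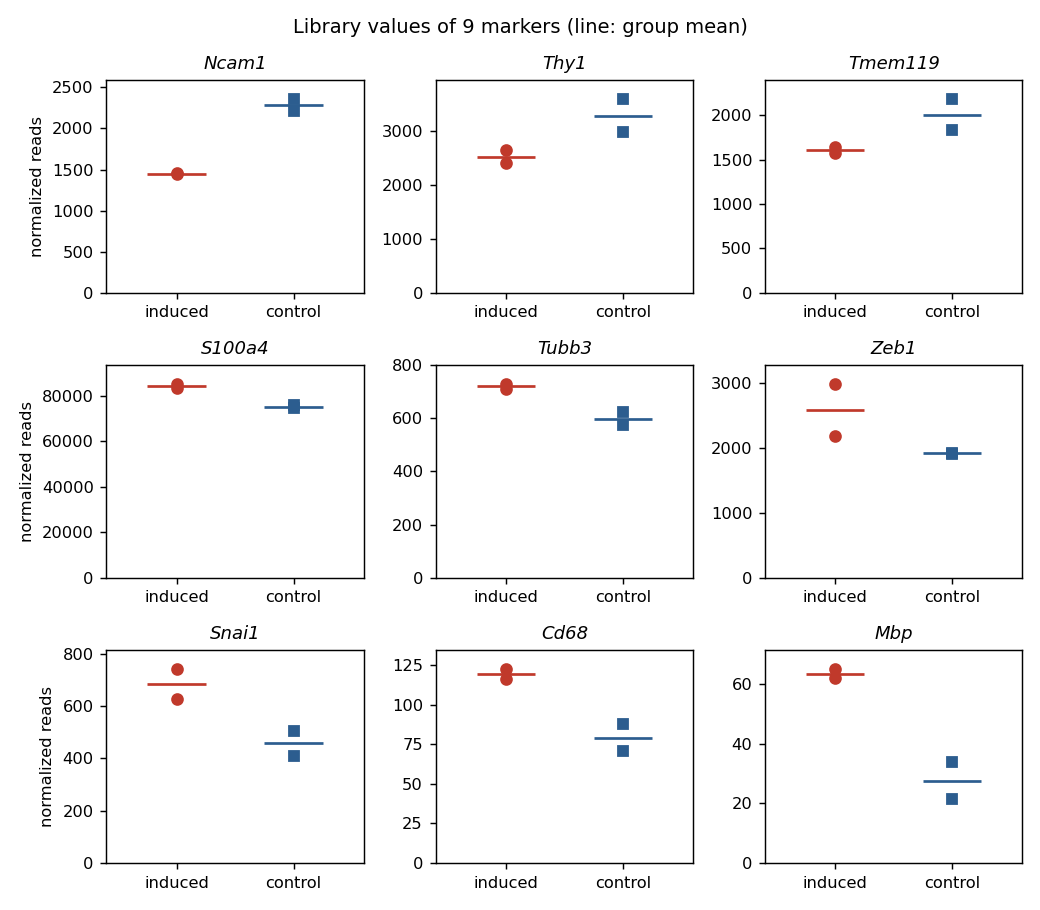
Normalized reads (vertical axes from 0) of the 9 markers with an unadjusted p under 0.05, with 2 Pja2-induced libraries at the left and 2 control libraries at the right of each panel and a line at each mean. Groups do not overlap in any of the 9 panels, which selection by that p favours with 2 libraries per group. Over all tested genes, 51.3% have groups that do not overlap. Ncam1 alone passed the adjusted threshold.

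The neuronal cytoskeleton was represented by a single gene above 1 CPM. Tubb3, the neuron-enriched beta tubulin gene, had 711 and 728 normalized reads in induced cells, against 622 and 574 in control cells. The induced libraries lay above both controls, with a log2 fold change of 0.27 (95% interval 0.02 to 0.51), and the gene did not pass the test (adjusted p = 0.229). The other 5 genes of this kind with a row had at most 42 reads in any library. Gap43, a growth cone protein gene, had 0 and 14 reads in induced cells, against 19 and 42 in control cells, so that the groups did not overlap. Mapt, which encodes the axonal microtubule protein tau, had 10 and 6 reads in induced cells, against 17 and 15 in control cells. Stmn2, a microtubule-destabilizing protein gene of growing neurites, had 12 and 5 reads in induced cells, against 13 and 0 in control cells. The neurofilament light chain gene Nefl had 6 reads in induced replicate 1 and 0 in the other 3 libraries. Dcx, a marker of migrating young neurons, had 2 and 0 reads in induced cells, against 3 and 0 in control cells. None of these 5 reached 1 CPM, and they were not tested.

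Of the 4 synaptic markers with a row, Syn1 and Dlg4 were above 1 CPM, while Syp and Syt1 were near 0. Syn1, which encodes a phosphoprotein on synaptic vesicles, had 1072 and 1170 normalized reads in induced cells, against 1186 and 1087 in control cells. Dlg4, the gene of the postsynaptic scaffold PSD-95, had 1603 and 2074 normalized reads in induced cells, against 2385 and 1867 in control cells. The groups overlapped for both genes, and neither passed the test (adjusted p = 0.931 and 0.539). Their log2 fold changes were -0.02 (95% interval -0.25 to 0.21) and -0.21 (95% interval -0.62 to 0.20). Syp, the synaptophysin gene of the vesicle membrane, had 22 and 12 reads in induced cells, against 5 and 12 in control cells. The vesicle calcium sensor gene Syt1 had 0 reads in both induced libraries, against 7 and 0 in control cells. A library with 0 reads still allows a level of up to 3 reads, which is 2.78 to 3.77 normalized reads in these libraries (counting error only).

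Many neuronal genes carry a binding element of the repressor REST, whose gene Rest had 5011 and 5194 normalized reads in induced cells, against 4815 and 4386 in control cells (adjusted p = 0.326). The Syn1 promoter is shown because it is known for such an element and because Syn1 was the most abundant per length of the 4 synaptic markers with a row. It is the part before the annotated start, from RefSeq (GRCm38.p6, chrX:20920919-20921168, minus strand, written 5′ to 3′), and the capitals mark the left part of the element, TTCAGCACC.
Syn1: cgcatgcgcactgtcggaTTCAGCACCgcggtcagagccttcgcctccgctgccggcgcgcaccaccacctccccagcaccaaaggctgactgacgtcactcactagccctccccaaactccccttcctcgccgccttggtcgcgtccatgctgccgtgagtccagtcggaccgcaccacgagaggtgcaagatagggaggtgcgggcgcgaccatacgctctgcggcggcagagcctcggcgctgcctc
On either strand, TTCAGCACC occurred in 0.371% of 32851 promoter windows of 300 bases in the RefSeq table, and among the 39 markers with a window in Syn1 alone. A match is a description of these letters and not evidence of binding.

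Among the remaining neuronal markers, the cell adhesion molecule gene Ncam1 fell. Ncam1 (ENSMUSG00000039542, chromosome 9), which encodes a homophilic adhesion protein of neurons, glia and muscle, had 1440 and 1460 normalized reads in induced cells, against 2216 and 2358 in control cells. Both induced libraries lay below both controls, and the spread within each group was small (1450 ± 14.2 in induced cells and 2287 ± 101 in control cells). The level in induced cells was 0.634 times that in control cells, with a log2 fold change of -0.66 (SE 0.07, 95% interval -0.84 to -0.47, adjusted p = 0.0159, limma with Benjamini-Hochberg adjustment over 13276 genes). Exons of Ncam1 share 417 of 8664 bases with the antisense gene Gm11149, which had 3 and 4 reads in induced cells, against 4 and 3 in control cells. The call was kept when any single library was left out and was lost in a fit without a variance trend, with an adjusted p of 0.0147 to 0.0731 over 12 alternatives.

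Eno2, the neuron-enriched enolase gene of glycolysis, had 3879 and 3407 normalized reads in induced cells, against 3965 and 4107 in control cells. Both induced libraries lay below both controls, with a log2 fold change of -0.15 that did not pass the test (adjusted p = 0.386). L1cam, an adhesion gene of the same immunoglobulin superfamily as Ncam1, was below the filter with 15 and 22 reads in induced cells, against 26 and 29 in control cells. Its groups did not overlap, and 100 of its exon bases are shared with Arhgap4, which had 97 and 158 reads in induced cells, against 70 and 91 in control cells. Prox1, a homeobox factor gene of dentate granule neurons, had 0 reads in both induced libraries, against 0 and 5 in control cells. Uchl5, which encodes a deubiquitinase of the proteasome found in most cell types and is not a neuronal marker, had 1246 and 1123 normalized reads in induced cells, against 1190 and 1256 in control cells (adjusted p = 0.821).

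Summed over the 14 neuronal genes with a row, the level was 1830 and 1809 normalized reads per kb in induced cells, against 2000 and 1961 in control cells. A few genes dominate this sum. Eno2 averaged 774 in induced and 858 in control cells, and Ncam1 167 and 264. Tubb3 went the other way, at 385 and 320, and Syn1 and Dlg4 had overlapping groups. Of the 5 tested, 1 fell, 0 rose and 4 did not pass, with a median log2 fold change of -0.15, against 0.00252 over all tested genes. That median was -0.03 without induced replicate 1, -0.08 without induced replicate 2 and -0.03 without control replicate 1. The label of hippocampal neuron stands beside library values at or near 0 for Syp, Syt1, Stmn2, Mapt, Nefl, Dcx and Prox1. It also stands beside Eno2, Tubb3, Syn1, Ncam1 and Dlg4, which were above 1 CPM. Eno2, Tubb3 and Syn1, at 816, 353 and 342 normalized reads per kb, lay above the median of 242 over tested genes. Ncam1 and Dlg4, at 216 and 150, lay below it. Their place depends on the length used, which was 8664 bases for Ncam1 and 13251 for Dlg4. Before division by length, Ncam1 and Dlg4 averaged 1868 and 1982 normalized reads. Syn1 and Tubb3 had fewer, at 1129 and 659, and Eno2 had more, at 3840.

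The glial lists each held 1 abundant gene that other cell types also express. Slc1a3, the glutamate and aspartate transporter gene of astrocytes, had 3426 and 4237 normalized reads in induced cells, against 3302 and 2956 in control cells. Both induced libraries were above both controls, the log2 fold change was 0.29 (95% interval -0.01 to 0.58), and the test was not passed (adjusted p = 0.269). Gfap, the astrocyte intermediate filament gene, had 9 and 10 reads in induced cells, against 6 and 0 in control cells. S100b, a calcium-binding protein gene of astrocytes, had 3 and 7 reads in induced cells, against 0 reads in both control libraries. Neither approached 1 CPM.

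Cspg4, the NG2 proteoglycan gene, had 4671 and 5247 normalized reads in induced cells, against 5920 and 5323 in control cells. Both induced values lay below both control values, and the difference did not pass the test (log2 fold change -0.18, adjusted p = 0.334). Mbp, the myelin basic protein gene, was the lowest of the 24 tested markers per length, and it had the largest log2 fold change among them. It had 62.0 and 64.9 normalized reads in induced cells, against 21.4 and 33.7 in control cells. These rested on 57 and 70 reads in induced cells, against 17 and 32 in control cells, and the log2 fold change of 1.21 (95% interval 0.39 to 2.03) did not pass the test (adjusted p = 0.137). In the control libraries 1 CPM stood for 25.8 and 31 reads. Mbp thus passed the filter mainly through the induced libraries, where it was higher, which limits its rank by change. The Mbp locus also holds Golli transcripts, which are made outside the oligodendrocyte lineage, and gene-level values do not separate them.

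Of the 6 microglial and leukocyte markers, Tmem119 was the most abundant per length, while the receptor genes Cx3cr1, Csf1r and Ptprc were near 0. Tmem119, a membrane protein gene used to mark microglia that is also expressed by osteoblasts, had 1579 and 1644 normalized reads in induced cells, against 2184 and 1830 in control cells. Its induced values lay below both control values (log2 fold change -0.31, 95% interval -0.57 to -0.06, adjusted p = 0.190). Cd68, a lysosomal glycoprotein gene of macrophages, had 116 and 122 normalized reads in induced cells, against 88.0 and 70.6 in control cells. Aif1, the gene of the actin-binding protein IBA1, had 73.9 and 91.8 normalized reads in induced cells, against 46.5 and 67.4 in control cells. Both genes had induced values above both controls, and neither passed the test (adjusted p = 0.219 and 0.362). The fractalkine receptor gene Cx3cr1 had 2 and 9 reads in induced cells, against 6 and 2 in control cells. The colony-stimulating factor receptor gene Csf1r had 4 and 8 reads in induced cells, against 4 and 0 in control cells, and 873 of its 5774 exon bases are shared with Hmgxb3, which had 1466 and 1828 reads in induced cells, against 1177 and 1559 in control cells. Ptprc, which encodes the leukocyte antigen CD45, had 0 reads in both induced libraries, against 5 and 0 in control cells.

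Endothelial and epithelial genes had at most 19 reads in any library. The endothelial adhesion gene Pecam1 had 10 and 10 reads in induced cells, against 7 and 19 in control cells. The angiopoietin receptor gene Tek had 3 and 0 reads in induced cells, against 8 and 0 in control cells. The groups overlapped for both. The keratin gene Krt8 had 3 and 5 reads in induced cells, against 7 and 0 in control cells. Krt19, another keratin gene of simple epithelia, had 4 and 4 reads in induced cells, against 0 reads in both control libraries. Summed over both keratin genes with a row, the induced libraries held 7 and 9 reads, against 7 and 0 in the control libraries.

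Snail and Zeb factors are known to repress epithelial genes through the E-box CACCTG. Promoter windows in the RefSeq table exist for 3 of the 4 epithelial markers, Krt8, Krt18 and Epcam, and all 3 hold CACCTG, Epcam on both strands and the other two on 1 strand. The motif is common: it occurred in 20.2% of all 32851 windows of 300 bases, and in 20.4% of the 49 windows of the 39 markers that have one. A match to CACCTG, in these or other promoters, is not evidence of binding, and repression was not tested. Krt18 and Epcam have no row, so no level can be set beside their motif. Krt8 and Epcam are shown because they stand for the keratin and the adhesion part of that list, each as the part before the annotated start, from RefSeq (GRCm38.p6), written 5′ to 3′ with each CACCTG, or CAGGTG where it lies on the other strand, in capitals. Krt8 is at chr15:102004343-102004592 on the minus strand and Epcam at chr17:87635729-87635978 on the plus strand.
Krt8: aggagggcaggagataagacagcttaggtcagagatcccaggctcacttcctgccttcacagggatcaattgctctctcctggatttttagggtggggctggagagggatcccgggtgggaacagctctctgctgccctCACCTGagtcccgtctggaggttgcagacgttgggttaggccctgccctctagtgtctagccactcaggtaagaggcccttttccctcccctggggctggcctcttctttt
Epcam: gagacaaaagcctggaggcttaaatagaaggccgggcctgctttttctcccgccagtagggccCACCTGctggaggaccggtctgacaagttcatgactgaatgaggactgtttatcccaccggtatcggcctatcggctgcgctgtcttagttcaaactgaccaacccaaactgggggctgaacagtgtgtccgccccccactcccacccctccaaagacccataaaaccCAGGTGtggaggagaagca

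Of the 6 tested mesenchymal surface and S100 genes limma called 0, with 1 higher and 1 lower at an unadjusted p under 0.05 and 0 called by limma voom. S100a4 had 85017 and 83317 normalized reads in induced cells, against 74445 and 75872 in control cells, and both induced libraries lay above both controls. Its log2 fold change was 0.16 (95% interval 0.01 to 0.31), short of the threshold (adjusted p = 0.234), and 302 of its 584 exon bases are shared with the gene model Gm42674. Cd34 had 26449 and 25380 normalized reads in induced cells, against 25769 and 24986 in control cells, and S100a6 had 21761 and 19861 in induced cells, against 19480 and 21279 in control cells. Their groups overlapped, with 95% intervals of the log2 fold change of -0.12 to 0.18 for Cd34 and -0.16 to 0.22 for S100a6. Cd44, the hyaluronan receptor gene, had 3762 and 3302 normalized reads in induced cells, against 3984 and 3714 in control cells (adjusted p = 0.487).

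Thy1, a glycolipid-anchored surface protein gene, had 2654 and 2403 normalized reads in induced cells, against 3600 and 2988 in control cells. Both induced libraries were below both controls, with a log2 fold change of -0.38 (95% interval -0.65 to -0.11) that did not pass the test (adjusted p = 0.150). Pdpn, which encodes the mucin-like protein podoplanin, had 2156 and 2096 normalized reads in induced cells, against 1836 and 1974 in control cells (log2 fold change 0.16, adjusted p = 0.319). Mcam, an adhesion gene of pericytes and endothelium, was the exception in level. It had 0 reads in both induced libraries, against 5 and 8 in the control libraries, and was below the filter.

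All 6 mesenchymal transcription factor genes were above 1 CPM. Snai1, a zinc finger repressor gene, had 741 and 628 normalized reads in induced cells, against 409 and 506 in control cells. Both induced libraries lay above both controls, and the log2 fold change of 0.58 (95% interval 0.21 to 0.95) did not pass the test (adjusted p = 0.115). Zeb1, a repressor gene of the zinc finger and homeobox type, had 2978 and 2182 normalized reads in induced cells, against 1926 and 1909 in control cells. Its groups did not overlap either, while the induced libraries were further apart than the controls (log2 fold change 0.41, adjusted p = 0.219). Without induced replicate 2, the lower of the pair, Zeb1 passed the test (log2 fold change 0.63, adjusted p = 0.0384), and without induced replicate 1 its log2 fold change was 0.19. Over 12 alternatives its adjusted p ran from 0.0384 to 0.533. Exons of Zeb1 share 198 of 10266 bases with Gm10125 on the other strand, which had 32 and 36 reads in induced cells, against 12 and 22 in control cells. Snai2, a relative of Snai1, had 2150 and 1865 normalized reads in induced cells, against 2108 and 2007 in control cells, with overlapping groups (adjusted p = 0.857).

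The Snai1 promoter is shown because the Snai1 protein is known to bind its own promoter at an E-box. The part before the annotated start is from RefSeq (GRCm38.p6, chr2:167537945-167538194, plus strand, 5′ to 3′), with CACCTG in capitals.
Snai1: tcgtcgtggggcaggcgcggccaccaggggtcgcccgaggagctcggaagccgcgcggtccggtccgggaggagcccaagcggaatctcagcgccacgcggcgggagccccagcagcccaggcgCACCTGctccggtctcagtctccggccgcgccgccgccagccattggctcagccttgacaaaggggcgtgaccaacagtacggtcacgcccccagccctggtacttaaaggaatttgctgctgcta
Of the 4 mesenchymal factor genes with a window in the table, Snai1 was the 1 with this motif.

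The other 3 factor genes had overlapping groups. Twist1, a basic helix-loop-helix factor gene, had 820 and 818 normalized reads in induced cells, against 732 and 832 in control cells. Its relative Twist2 had 3778 and 3755 normalized reads in induced cells, against 5534 and 3705 in control cells. The homeobox factor gene Prrx1 had 3220 and 3808 normalized reads in induced cells, against 6001 and 3734 in control cells. Control replicate 1 was thus the highest library for both Twist2 and Prrx1. Without control replicate 2, which leaves that library as the only control, both were called lower in induced cells (adjusted p = 0.0341 for Twist2 and 0.0471 for Prrx1), and without control replicate 1 their log2 fold changes were 0.02 and -0.09. Over 12 alternatives the adjusted p ran from 0.0341 to 0.903 for Twist2 and from 0.0471 to 0.736 for Prrx1. Exons of Twist2 share 1477 of 3174 bases with the antisense gene Gm29100, which had 423 and 684 normalized reads in induced cells, against 2812 and 462 in control cells. The library kit does not mark the strand, so reads of that shared stretch cannot be assigned to either gene.

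A wider set of 94 genes of the same lineages was examined beside the list, of which 62 had a row and 34 were tested. Limma called 1 higher and 1 lower, which is 5.88% of those tested, beside 3.42% of all tested genes. Both were mesenchymal genes, which made up 11 of the 34. The wider mesenchymal list held 15 genes, and not all were abundant. Fap had no row, and Tagln, Lum and Nt5e, named after their values were seen, were below the filter. Tagln had 30 and 41 reads in induced cells, against 12 and 16 in control cells. Lum had 0 and 3 in induced cells, against 3 and 13 in control cells, and Nt5e 6 and 3, against 9 and 10. Acta2, the smooth muscle actin gene, rose to 393 and 403 normalized reads in induced cells, against 207 and 143 in control cells (log2 fold change 1.20, adjusted p = 0.0402). Col3a1, a fibrillar collagen gene, fell to 47479 and 48561 normalized reads in induced cells, against 81869 and 68553 in control cells (log2 fold change -0.64, adjusted p = 0.0309). Col1a2, a chain gene of type I collagen, had the most normalized reads of this list, with 173608 and 170583 normalized reads in induced cells, against 189826 and 171347 in control cells. The fibronectin gene Fn1 had 117070 and 130411 in induced cells, against 107104 and 89308 in control cells. Col1a2 had overlapping groups, Fn1 was higher in both induced libraries than in both controls, and neither passed (adjusted p = 0.691 for Col1a2 and 0.182 for Fn1). Per length, they averaged 14191 and 9497 normalized reads per kb, at ranks 82 and 136 among all genes with a length. On that scale the galectin gene Lgals1, named after its values were seen, was the highest of the list, at 53764 normalized reads per kb and rank 24.

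The wider neuronal list had 9 of 27 genes tested, and 0 were called by limma or by limma voom, with 1 at an unadjusted p under 0.05. Vamp2, a gene of vesicle fusion that many secreting cells share, had 3121 and 2971 normalized reads in induced cells, against 3111 and 2935 in control cells. Of 16 neural progenitor genes 4 were tested and 0 called, with 1 at an unadjusted p under 0.05.

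In the wider glial list 4 of 11 genes were tested and limma called 0, with 2 at an unadjusted p under 0.05. Pdgfra, the growth factor receptor gene of oligodendrocyte precursors and of fibroblasts, had 9565 and 9890 normalized reads in induced cells, against 10809 and 9270 in control cells. The connexin gene Gja1 had 2573 and 2617 in induced cells, against 1806 and 2081 in control cells (adjusted p = 0.0724). Limma voom called 1 gene of this list lower, the folate enzyme gene Aldh1l1 of astrocytes, named after its values were seen. Aldh1l1 passed the filter only through the control libraries. In induced cells it had 5 and 16 reads, where 1 CPM stood for 30.1 and 35.3 reads. It had 5.44 and 14.8 normalized reads in induced cells, against 57.8 and 65.3 in control cells, and its adjusted p with limma was 0.0618. Of the wider leukocyte, endothelial and epithelial lists, 3, 1 and 2 genes were tested and 0 were called by limma or limma voom, with 2, 0 and 1 at an unadjusted p under 0.05. The lipopolysaccharide co-receptor gene Cd14 had 349 and 371 normalized reads in induced cells, against 289 and 366 in control cells. The endothelial genes were low: the endoglin gene Eng had 66.3 and 67.7 normalized reads in induced cells, against 72.9 and 70.6 in control cells, and Vwf, which encodes von Willebrand factor and was below the filter, had 30.4 and 26.9 in induced cells, against 8.80 and 26.3 in control cells. The epithelial cadherin gene Cdh1 had 241 and 209 normalized reads in induced cells, against 252 and 334 in control cells, and the tight junction gene Ocln had 62.0 and 68.6 in induced cells, against 13.8 and 25.3 in control cells (adjusted p = 0.354 and 0.0793). Ocln passed the filter only through the induced libraries. In control cells it had 11 and 24 reads, where 1 CPM stood for 25.8 and 31 reads.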

How the data were processed

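RNA of 4 HT-22 libraries was sequenced, 2 per group. Per the labels' protocols, RNA was taken with Trizol and libraries were made with a TruSeq kit, which keeps no strand. The submitters' processing notes name HISAT, Cufflinks and the build mm9, while the sources used here do not give the read counter or the scaling. The authors deposited log2 values, 1 per gene and library. Raised to the power of 2 and less 1, 100% of them are whole multiples of 1 step per library (tolerance 0.01), so they are log2(normalized read count + 1), called normalized reads here. This scale understates the change of low genes. Whole reads recovered in this way gave the totals and CPM.

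limma 3.58.1 (R 4.3.3) with a variance trend was fitted to the deposited log2 values of genes that averaged 1 CPM or more, with both groups and no covariate. P-values are two-sided, with Benjamini-Hochberg adjustment over 13276 genes. Intervals come from the same fit. A count model was not used, although whole reads were recovered, and limma voom on the recovered reads served as an alternative. The fit was also run on simulated data, whose changes were larger than those of most tested markers. No result here rests on that run. Exon lengths, chromosomes and overlaps are from GENCODE M21 (GRCm38), matched by Ensembl ID to 24591 of 24689 genes, with no coordinates carried to mm9. The list was chosen with earlier results of these data known, as were the wider lists. Library values are given for markers past the threshold, the 3 most abundant of each lineage, and those that define a lineage. Others are named after their values were seen. From the wider lists, named are members past the threshold and the 2 most abundant, apart from some that are not reported here. Alternatives were the filter, pseudocount, scaling, variance model, test, a replicate block and each library left out.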

Additional observations from a re-analysis of the deposited data

How the results depend on the processing

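Of 285 recomputed log2 fold changes of tested markers, 273 kept their direction and side of the threshold, 1 lost the call, 3 gained one and 8 uncalled ones changed sign. Over all genes, 276 were higher and 178 lower. Without the filter these counts were 100 and 59, and without a variance trend 64 and 52, where 0 markers were called lower. With a replicate block they were 157 and 104, and the marker count stayed at 0 higher and 1 lower. The replicate numbers do not show pairing: the deviations of same-numbered libraries had a correlation of -0.095 over 13276 genes. Leaving out 1 library gave 114 to 210 genes higher and 81 to 138 lower, 0 to 1 markers higher (Zeb1, without induced replicate 2) and 1 to 3 lower (with Twist2 and Prrx1, without control replicate 2). Such a fit has fewer degrees of freedom, and a lone library is assumed to vary like the other group. Each of these fits kept 24 markers at 1 CPM or more, as did the deposited scaling, an alternative chosen after seeing the data. The median log2 fold change of the 5 tested neuronal markers was -0.15, and ran from -0.13 to -0.03 when 1 library was left out. That of the 3 tested microglial markers was 0.55, and -0.31 with a filter of 5 CPM, where Tmem119 is the 1 left. The median over all tested genes was 0.00252, and -0.00469 and 0.0199 under the other scalings. Counting error limits the 19 markers under 1 CPM, with at most 42 reads in a library.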
